A study of Mus musculus with 6 samples.

Results

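The 37 genes described here encode proteins that repair DNA or signal its damage, chosen by symbol from a table of 24028 mouse genes. All 37 had a row in the table and all had enough counts to be tested in both groups, with the lowest count in any library at 10 (Ddb2). RNA-seq was done on C2C12 cells, mouse myoblasts that grow indefinitely, of a single clone kept under puromycin and carrying a doxycycline-inducible, codon-altered transgene called MMH. MMH joins the mouse Dux amino terminus, with its homeodomains, to the region of human DUX4 that lies beyond the human homeodomains. The induced group was 3 cultures given 2 µg/ml doxycycline, and the uninduced group was 3 cultures of the same clone without the drug. The sample protocol gives 36 h of doxycycline and the series description 18 h. All cells were from 1 clone, and doxycycline without the transgene was not analysed here, so the drug and the factor cannot be told apart.

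Cells repair breaks of both DNA strands either by homologous recombination, which copies the sister chromatid, or by joining the ends directly. Nucleotide excision removes bulky lesions, base excision removes damaged or misplaced bases, mismatch repair corrects replication errors, and the Fanconi pathway unhooks crosslinked strands. The kinases ATM and ATR sense breaks and stalled forks and signal through the checkpoint kinases CHK2 and CHK1. Many of these genes are transcribed together with replication genes in dividing cells such as myoblasts.

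The libraries held 21503384 to 24489531 counts each. Levels are given as CPM, counts scaled to a common total, on library sizes scaled with TMM factors, which averaged 0.716 for induced and 1.40 for uninduced libraries. A direction here is thus relative to the middle of all 12969 genes tested. When libraries were scaled by their size alone, the median log2 fold change of all genes tested moved to -0.97, against -0.01 with TMM. In these bulk samples fewer cells with a transcript and less of it per cell cannot be told apart. The myoblast markers were abundant, at 787 to 815 CPM summed in induced and 1490.4 to 1495 CPM in uninduced libraries, and all 5 of the 6 that were tested were lower. The 6 myotube markers, all lower, summed to 432 to 488 CPM in induced and 671 to 693 CPM in uninduced libraries. Of 5 markers each of other cell types, leukocyte markers (1 tested, not called) summed to at most 1.61 CPM in any library and epithelial markers (2 tested, neither called) to at most 5.61 CPM. Endothelial markers (2 tested, both higher) summed to 2.22 to 2.59 CPM in induced and 0.259 to 0.852 CPM in uninduced libraries. Pluripotent cell markers (2 tested, both higher) summed to 7.64 to 9.92 CPM in induced and 0.582 to 0.885 CPM in uninduced libraries, with Pou5f1 and Lin28a at no count in any library. The part of these markers in the members' changes was not tested.

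Most of the 37 transcripts fell relative to the middle of all genes, and 10 rose. Ung, Fanci, Chek2 and Rad51c fell more than 3-fold, whereas Xpc rose 3.23-fold, Rad52 2.33-fold and Trp53bp1 2.04-fold. Of the 37 members, 25 were lower, 10 were higher and 2 (Brca2 and Xrcc5) were not called by edgeR's quasi-likelihood test at a Benjamini-Hochberg adjusted p of 0.05, where 82.5% of all genes tested were called. The lower calls came to 67.6% of members, against 41.2% of all genes tested, and the higher calls to 27.0%, against 41.3%. A fall of at least 2-fold was found for 9 members (24.3%, against 12.7% of all genes tested) and a rise of at least 2-fold for 3 (8.11%, against 17.99%). The median log2 fold change was -0.46 over members and -0.01 over all genes tested. Under size-only scaling 33 of the 37 members were lower and 2 higher, against 76.7% and 15.2% of all genes tested. That setting turned 7 of the 10 rises negative, all but those of Xpc, Rad52 and Trp53bp1. Upper-quartile scaling gave 26 members lower and 7 higher, against 47.7% and 35.4% of all genes tested, and a test against a change of 1.5-fold (glmTreat) called 12 lower and 5 higher, against 19.4% and 23.4%. For 35 of the 37 members no induced library overlapped an uninduced one in CPM, against 83.1% of all genes tested. Replicates were close: the SD between cultures was at the median 5.25% of the mean in induced and 4.78% in uninduced cells, and highest for Chek2 in induced cells (35.3%).

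**Figure D1:**
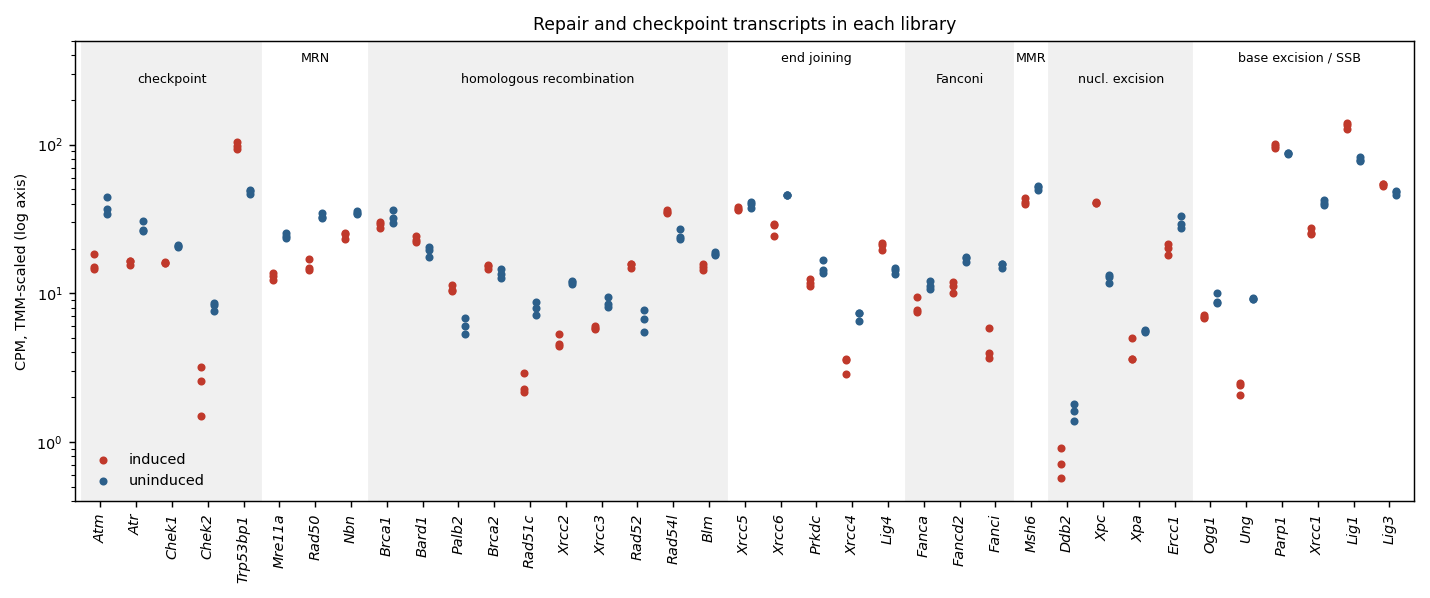
TMM-scaled CPM of each of the 37 members (log axis) in the 3 induced libraries (red, left) and the 3 uninduced libraries (blue, right), grouped by pathway (MRN is the Mre11a, Rad50 and Nbn complex, MMR mismatch repair, SSB single-strand break repair). Only Brca1 and Xrcc5 overlap between the groups, and Ung, Fanci, Chek2 and Rad51c show the widest gaps downward.

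Promoter sequence is shown for 3 of the steepest falls (Fanci, Chek2 and Rad51c), for Rad52, which rose, and for Atm, which has a neighbour that went the other way with TMM scaling. Each window runs from 250 bases before to 50 bases after a transcription start, on the strand of the gene, from RefSeq (build GRCm38.p6), where 30 of the 37 members had 35 windows. Capitals mark an E2F-like motif (TTCCCGC or TTGGCGC) or a CCAAT box, each searched on both strands, and TTGGCGC can overlap a reversed CCAAT.
Fanci, chr7:79392088-79392387, plus strand: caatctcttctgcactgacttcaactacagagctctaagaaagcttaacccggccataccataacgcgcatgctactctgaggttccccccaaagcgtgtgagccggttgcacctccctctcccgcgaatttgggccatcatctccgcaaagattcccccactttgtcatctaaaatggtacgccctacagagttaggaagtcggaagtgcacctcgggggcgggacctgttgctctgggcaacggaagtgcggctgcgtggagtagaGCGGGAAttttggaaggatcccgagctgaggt
Chek2, chr5:110839733-110840032, plus strand: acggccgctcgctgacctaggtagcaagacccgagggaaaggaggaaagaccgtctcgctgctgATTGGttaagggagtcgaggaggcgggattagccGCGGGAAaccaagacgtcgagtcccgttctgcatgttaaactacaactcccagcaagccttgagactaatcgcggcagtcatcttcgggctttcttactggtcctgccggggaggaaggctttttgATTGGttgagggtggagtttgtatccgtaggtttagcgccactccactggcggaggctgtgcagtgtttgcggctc
Rad51c, chr11:87404905-87405204, minus strand: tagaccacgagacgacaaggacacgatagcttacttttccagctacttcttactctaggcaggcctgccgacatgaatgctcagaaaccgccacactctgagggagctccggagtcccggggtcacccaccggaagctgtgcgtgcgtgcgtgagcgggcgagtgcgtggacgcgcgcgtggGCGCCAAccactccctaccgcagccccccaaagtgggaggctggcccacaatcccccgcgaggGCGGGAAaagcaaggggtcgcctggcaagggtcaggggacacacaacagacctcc
Rad52, chr6:119902448-119902747, plus strand: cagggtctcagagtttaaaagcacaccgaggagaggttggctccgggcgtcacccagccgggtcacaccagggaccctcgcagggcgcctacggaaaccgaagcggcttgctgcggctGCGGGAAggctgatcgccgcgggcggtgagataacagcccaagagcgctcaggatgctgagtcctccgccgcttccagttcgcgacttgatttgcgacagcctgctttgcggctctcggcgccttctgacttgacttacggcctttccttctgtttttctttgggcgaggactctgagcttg
Atm, chr9:53536622-53536921, minus strand: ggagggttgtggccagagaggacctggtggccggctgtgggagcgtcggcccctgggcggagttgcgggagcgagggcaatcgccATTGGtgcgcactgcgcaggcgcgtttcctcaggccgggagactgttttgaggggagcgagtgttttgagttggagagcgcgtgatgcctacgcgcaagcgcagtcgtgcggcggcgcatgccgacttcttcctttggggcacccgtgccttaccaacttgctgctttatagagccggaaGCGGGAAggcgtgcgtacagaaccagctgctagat
The 5 windows shown were chosen with their matches known, and each holds an E2F-like motif; those of Chek2 and Atm also hold a CCAAT box. The windows of Ung, the steepest fall, and Trp53bp1, a rise, hold neither motif. An E2F-like motif was in 13 of the 35 member windows (37.1%), against 11.7% of the 13104 windows of tested genes and 6.81% of all 32851 windows; the Rad51c window shown is the one of its pair that holds it. E2F factors drive genes of the G1/S transition. Genes of either direction held the motif: of 13 genes, 9 were lower, 3 were higher (Bard1, Lig1 and Rad52) and Brca2 was not called. CCAAT was in 45.7% of member windows and 38.4% of windows of tested genes. The palindrome of TGATT, any base and AATCA, which resembles the Dux site, was in 0 of the 35 member windows and in 11 of all windows. Member windows had a median GC content of 60.0%, against 60.7% in windows of tested genes.

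Among the checkpoint genes, the kinases fell and the mediator rose. Chek2, the kinase downstream of ATM (chromosome 5, 110839800 to 110874140 of GRCm38), had 2.56, 3.17 and 1.49 CPM in induced libraries, against 8.62, 7.54 and 8.36 CPM in uninduced libraries. All 3 induced libraries lay well under every uninduced one, although they differed among themselves. Chek2 thus fell 3.43-fold (log2 fold change -1.78 ± 0.17, edgeR adjusted p = 1.3e-09), where ± after a log2 fold change is its SE. Atm, the kinase recruited to broken ends (chromosome 9, 53437122 to 53536828), had 14.5, 18.4 and 15.1 CPM in induced libraries, against 44.2, 36.7 and 34.1 CPM in uninduced libraries. That fall of 1.27 ± 0.11 on the log2 scale (SE) was present in every library, and uninduced replicate 1 was the highest. Atr, the kinase of stalled replication forks, had 16.5, 15.5 and 16.4 CPM in induced libraries and 30.6, 26.3 and 26.5 CPM in uninduced libraries, a log2 fold change of -0.78 ± 0.08 (SE). Its target Chek1 fell least of the kinases, with a mean of 16.1 ± 0.191 CPM in induced and 20.7 ± 0.359 CPM in uninduced cells (SD, n = 3) and a log2 fold change of -0.37 ± 0.07. Trp53bp1, which encodes 53BP1, a chromatin reader that shields broken ends from resection (chromosome 2, 121194835 to 121296354), had 103.8, 98.4 and 94.1 CPM in induced libraries, against 49.5, 48.9 and 46.6 CPM in uninduced libraries. Every induced library was about 2 times the uninduced level, which gives 1.03 ± 0.05 in log2 fold change (SE, edgeR adjusted p = 2.2e-15). Under size-only scaling Trp53bp1 was at 0.07 and was not called. Exons of Trp53bp1 share 15.04% of their bases with Tubgcp4 on the opposite strand, whose log2 fold change was -0.06.

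The MRN complex holds broken ends and activates ATM, and all 3 of its genes fell, where 41.2% of all genes tested were lower. Rad50, its ATPase, had 14.4, 17.1 and 14.8 CPM in induced libraries, against 34.5, 32.4 and 32.3 CPM in uninduced libraries, or -1.10 ± 0.07 in log2 fold change (SE, edgeR adjusted p = 9.8e-13). All induced libraries lay below every uninduced one. Mre11a, the nuclease, fell by 0.91 ± 0.08 on the log2 scale, with 13.0 ± 0.737 CPM in induced and 24.4 ± 0.964 CPM in uninduced cells (SD, n = 3). Nbn, the subunit that binds ATM, fell by 0.51 ± 0.06, with 24.6 ± 1.36 CPM in induced and 34.9 ± 0.764 CPM in uninduced cells (SD, n = 3). The complex summed to 53.1 ± 3.16 CPM in induced and 92.3 ± 2.92 CPM in uninduced cells (SD, n = 3). Mean sums were also lower in induced cells for end joining (101 against 121 CPM), Fanconi (23.8 against 43.9) and mismatch repair (41.6 against 51.1). They were higher for homologous recombination (157 against 150), nucleotide excision (65.4 against 49.6) and base excision (321 against 274). Abundant genes weigh most in such sums: in induced cells Xpc alone had 40.8 CPM, Lig1 134 and Parp1 98.1. As a share of all counts, without TMM factors, these pathways were lower in induced cells, at 0.54, 0.68 and 0.60 times the uninduced share. The checkpoint sums (149 against 143) overlapped between the groups.

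Of 10 homologous recombination genes, 5 were lower (50%), 4 were higher (40%) and Brca2 was not called, shares near the 41.2% lower and 41.3% higher of all genes tested. The larger falls were in Rad51c, Xrcc2 and Xrcc3, whose proteins help strand exchange begin. Rad51c (chromosome 11, 87376645 to 87404954) had 2.17, 2.26 and 2.93 CPM in induced libraries, against 7.93, 8.80 and 7.11 CPM in uninduced libraries, or -1.69 ± 0.15 in log2 fold change (SE, edgeR adjusted p = 2.3e-10). No induced library came near the uninduced range. Xrcc2 fell to 4.75 ± 0.469 CPM in induced cells, against 11.8 ± 0.269 CPM in uninduced cells (SD, n = 3), a log2 fold change of -1.31 ± 0.11. Xrcc3 had 5.81, 5.76 and 6.03 CPM in induced libraries and 8.11, 8.51 and 9.38 CPM in uninduced libraries, a log2 fold change of -0.56 ± 0.11. Blm, the helicase that dissolves crossed strands, fell by 0.30 ± 0.08.

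Rad52, which anneals single strands (chromosome 6, 119901722 to 119922827), went the other way. It had 15.6, 14.7 and 15.8 CPM in induced libraries, against 5.45, 6.70 and 7.70 CPM in uninduced libraries, or 1.22 ± 0.11 in log2 fold change (SE, edgeR adjusted p = 2.6e-10). All induced libraries were close to one another and above every uninduced one. Rad52 was still called higher under size-only scaling, at 0.26 on the log2 scale (edgeR adjusted p = 0.0285). Palb2, the bridge between BRCA1 and BRCA2, rose by 0.83 ± 0.11 to 10.7 ± 0.563 CPM in induced cells, against 6.05 ± 0.746 CPM in uninduced cells (SD, n = 3). Rad54l, a motor protein that acts in strand exchange, rose by 0.51 ± 0.07 and Bard1, the partner of BRCA1, by 0.27 ± 0.07 on the log2 scale. These 3 rises were negative under size-only scaling (-0.14, -0.45 and -0.70), and Bard1 was not called with upper-quartile scaling (0.12). Brca1 was at -0.17 ± 0.07 (edgeR adjusted p = 0.0324) with overlapping groups, 27.4, 29.4 and 30.1 CPM in induced and 36.2, 32.2 and 29.5 CPM in uninduced libraries. That call was lost without uninduced replicate 1 (-0.09), uninduced replicate 2 (-0.19), induced replicate 1 (-0.13) or induced replicate 2 (-0.18), and with DESeq2 or RLE scaling (-0.15 each). Brca2, a mediator of strand exchange, was at 0.15 ± 0.08 (edgeR adjusted p = 0.0927), with 14.6, 15.5 and 15.2 CPM in induced and 14.6, 12.7 and 13.4 CPM in uninduced libraries. It was called higher without uninduced replicate 1 (0.21) and lower under size-only scaling (-0.81).

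In non-homologous end joining, 3 of 5 genes were lower (60%), 1 was higher (20%) and Xrcc5 was not called. Over all genes tested 41.2% were lower and 41.3% higher. Xrcc5 and Xrcc6 encode Ku80 and Ku70, the ring that slides onto broken ends. Xrcc5 had 36.5, 37.1 and 37.8 CPM in induced and 37.5, 40.1 and 40.8 CPM in uninduced libraries, or -0.09 ± 0.06 in log2 fold change (SE, edgeR adjusted p = 0.162). The groups overlap narrowly, and Xrcc5 was called lower without uninduced replicate 1 (-0.13), with upper-quartile scaling (-0.23) and without the low-count filter (-0.16). Xrcc6 fell by 0.73 ± 0.06 to 27.5 ± 2.77 CPM in induced cells, against 45.6 ± 0.0695 CPM in uninduced cells (SD, n = 3). Prkdc, the DNA-dependent protein kinase that Ku recruits, fell by 0.33 ± 0.09. Xrcc4 and Lig4 encode the scaffold and the ligase of the final step. Xrcc4 had 2.85, 3.62 and 3.56 CPM in induced libraries, against 7.33, 7.41 and 6.56 CPM in uninduced libraries, a log2 fold change of -1.09 ± 0.14 (SE). Lig4 had 19.4, 21.9 and 21.01 CPM in induced libraries, against 13.4, 14.4 and 14.7 CPM in uninduced libraries, a log2 fold change of 0.55 ± 0.08 (SE) that was -0.41 under size-only scaling. The scaffold and the ligase thus stood apart in every library, with no overlap between groups for either.

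The 3 Fanconi genes fell, where 41.2% of all genes tested were lower. Fanci (chromosome 7, 79392312 to 79450266 of GRCm38) had 3.93, 3.69 and 5.80 CPM in induced libraries, against 15.8, 15.9 and 14.9 CPM in uninduced libraries, or -1.78 ± 0.12 in log2 fold change (SE, edgeR adjusted p = 2.0e-12). Exons of Fanci share 16.0% of their bases with Polg on the opposite strand, which was at 0.14. Fancd2, whose protein clamps DNA together with FANCI, had 10.1, 11.8 and 11.2 CPM in induced libraries, against 17.4, 17.3 and 16.2 CPM in uninduced libraries, a log2 fold change of -0.62 ± 0.09 (SE). Both were lower in all induced libraries, Fanci by the wider margin. Fanca, of the core ubiquitin ligase, fell by 0.46 ± 0.10. Msh6, the member from mismatch repair, which binds mispaired bases, had 39.8, 44.0 and 40.9 CPM in induced libraries, against 52.5, 49.2 and 51.6 CPM in uninduced libraries, a log2 fold change of -0.30 ± 0.06 (SE).

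Nucleotide excision repair showed the largest rise among the members beside 3 falls. Of its 4 genes 25% were higher and 75% lower, against 41.3% and 41.2% of all genes tested. Xpc, the sensor of distorted DNA that opens global excision repair (chromosome 6, 91489305 to 91515888 of GRCm38), had 40.7, 41.0 and 40.7 CPM in induced libraries, against 12.8, 13.2 and 11.8 CPM in uninduced libraries. The induced libraries were nearly identical and about 3 times the uninduced ones, which gives 1.69 ± 0.07 in log2 fold change (SE, edgeR adjusted p = 3.2e-17). Xpc was also called higher under size-only scaling, at 0.73. Ddb2, the sensor of ultraviolet lesions that hands them to XPC, had 0.912, 0.712 and 0.574 CPM in induced libraries, against 1.80, 1.39 and 1.61 CPM in uninduced libraries, or -1.12 ± 0.27 in log2 fold change (SE, edgeR adjusted p = 0.000666). Those values rest on 10 to 16 counts per induced and 43 to 60 counts per uninduced library, and 23.8% of Ddb2 exon bases are shared with Acp2 on the opposite strand, which was at -0.64. Ercc1, a subunit of the nuclease that cuts beside the lesion, had 17.95, 20.1 and 21.4 CPM in induced libraries, against 27.3, 29.1 and 33.1 CPM in uninduced libraries, a log2 fold change of -0.59 ± 0.08 (SE). Xpa, the scaffold of the incision complex, fell by 0.46 ± 0.14.

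Base excision and single-strand break repair held both the steepest fall and 3 rises. Of its 6 genes 50% were higher and 50% lower, against 41.3% and 41.2% of all genes tested. Ung, the glycosylase that removes uracil from DNA (chromosome 5, 114130366 to 114139321 of GRCm38), had 2.51, 2.07 and 2.41 CPM in induced libraries, against 9.28, 9.09 and 9.15 CPM in uninduced libraries. Replicates were tight on both sides of that gap, which came to -1.97 ± 0.13 on the log2 scale (SE, edgeR adjusted p = 1.5e-12). Ogg1, the glycosylase for oxidised guanine, fell by 0.40 ± 0.11 and Xrcc1, the scaffold of single-strand break repair, by 0.64 ± 0.06 on the log2 scale. Lig1, the ligase that also seals Okazaki fragments (chromosome 7, 13277175 to 13311426), had 139.5, 136 and 127 CPM in induced libraries, against 82.9, 79.2 and 77.5 CPM in uninduced libraries, or 0.75 ± 0.05 in log2 fold change (SE, edgeR adjusted p = 2.9e-13). It was higher in all induced libraries on this scale but at -0.21 under size-only scaling. Parp1, which marks breaks with poly(ADP-ribose), was at 0.17 ± 0.04 and Lig3, the ligase bound to XRCC1, at 0.17 ± 0.05. Both were called higher with TMM, were not called with upper-quartile scaling (0.03 and 0.02) or without the low-count filter (0.10 and 0.10) and were lower under size-only scaling (-0.79 and -0.80). Lig3 shares 25.1% of its exon bases with Rffl on the opposite strand, which was at 0.03.

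**Figure D2:**
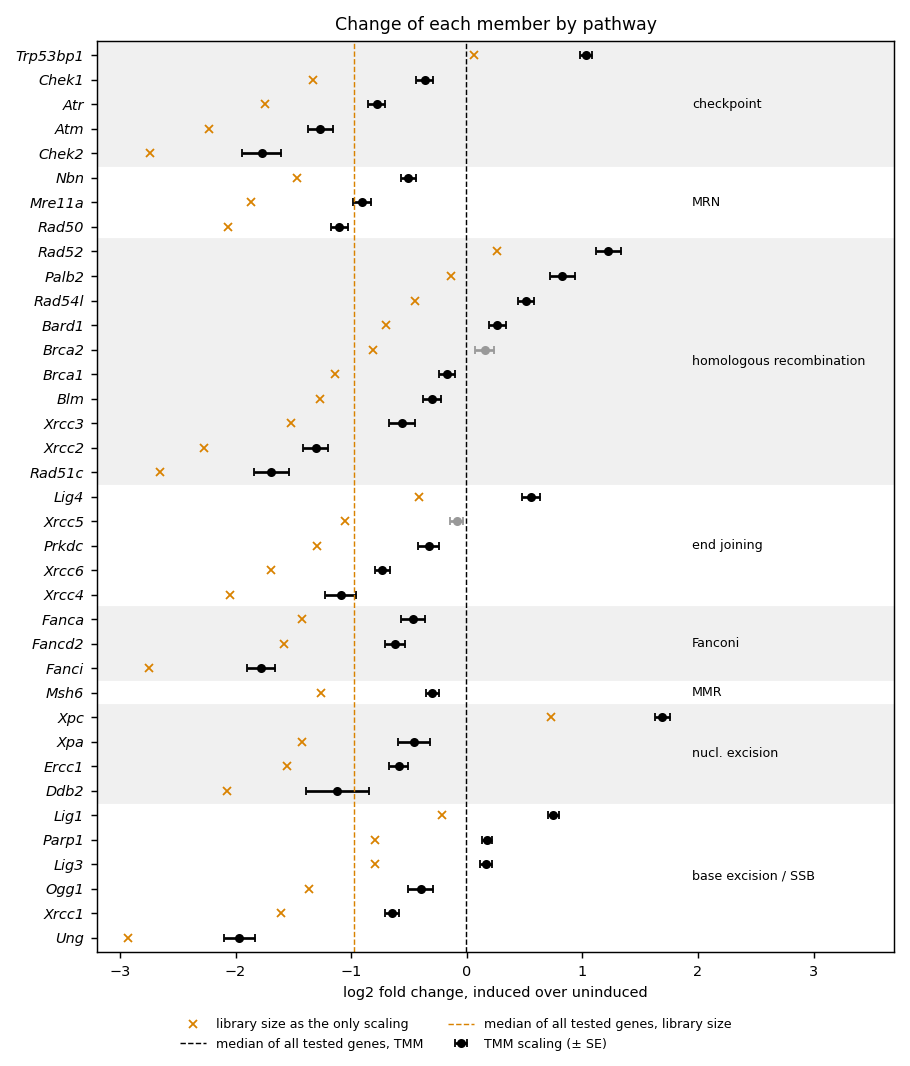
Log2 fold change of each member, induced over uninduced, by pathway, with TMM scaling (circles, ± SE; grey, not called) and under size-only scaling (crosses). Dashed lines mark the median of all tested genes under each scaling, at -0.01 and -0.97, and Xpc, Rad52 and Trp53bp1 are the members to the right of 0 under both.

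A ratio of counts between a pair of genes in the same library does not depend on how libraries are scaled. It was therefore compared for 16 pairs whose proteins act together, 11 within the 37 members and 5 with a partner outside them. The groups did not overlap for any of the 16 ratios. In TMM-scaled CPM of single genes, which is a different measure, 83.1% of genes tested did not overlap. Ratios of other gene pairs were not computed. In each case the exact permutation test over the 6 libraries gave p = 0.1 (two-sided, also 0.1 after adjustment over the 16 pairs), the smallest p that 3 against 3 libraries can give, so none could pass 0.05. The ratio differed by 1 or more on the log2 scale for 7 pairs and by less than 0.5 for 3.

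The end-joining scaffold and ligase moved furthest apart among pairs inside the 37. Xrcc4 had 0.148, 0.166 and 0.171 counts per count of Lig4 in induced libraries, against 0.547, 0.516 and 0.446 in uninduced libraries, a log2 difference of -1.64 ± 0.11 (SE). Exons of Xrcc4 share 2.66% of their bases with the more abundant Tmem167 on the opposite strand, which was at -1.39. The part of Tmem167 reads in the Xrcc4 counts was not tested. Xrcc5 to Xrcc6 was 1.504, 1.281 and 1.295 in induced and 0.821, 0.881 and 0.897 in uninduced libraries (0.65 ± 0.08). Per length of exon (TPM, transcript shares scaled to a common total), Xrcc5 was above Xrcc6 in both groups. It had 25.1 against 10.6 TPM in induced cells and 75.1 against 49.5 TPM in uninduced cells. The length is that of all annotated exons of a gene merged, 2555 bases for Xrcc5 and 4476 for Xrcc6. In CPM Xrcc5 was below Xrcc6 in uninduced cells (39.5 against 45.6), so the uninduced order by TPM rests on these lengths. Fancd2 to Fanci was 2.55, 3.19 and 1.94 in induced libraries and near 1 in uninduced libraries, at 1.10, 1.09 and 1.09 (1.20 ± 0.21). Rad51c to Xrcc3 was 0.376, 0.397 and 0.488 in induced and 0.978, 1.03 and 0.759 in uninduced libraries (-1.13 ± 0.18). Each of these shifts was seen in every library and was larger than the spread within either group.

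Ratios to partners outside the 37 shifted as well. Xpc to Rad23b, which encodes a protein that stabilises XPC, was 0.149, 0.152 and 0.147 in induced and 0.0453, 0.0494 and 0.0433 in uninduced libraries (1.70 ± 0.06), while Rad23b itself was not called (edgeR adjusted p = 0.916). Ercc1 to Ercc4, the catalytic partner of ERCC1, was 0.643, 0.736 and 0.790 in induced libraries and 1.94, 2.31 and 2.41 in uninduced libraries (-1.62 ± 0.13), as Ercc4 rose by 1.03 ± 0.07 while Ercc1 fell. Ddb2 to Ddb1, its binding partner, differed by -1.38 ± 0.20. Atr to Atrip, which brings ATR to single strands, was 0.866, 0.941 and 1.04 in induced and 2.48, 2.10 and 2.29 in uninduced libraries (-1.27 ± 0.10). The ratios that shifted least were Mre11a to Rad50 at 0.20 ± 0.04, Atr to Chek1 at -0.41 ± 0.07 and Brca1 to Bard1 at -0.43 ± 0.15. Between them lay Atm to Chek2 at 0.55 ± 0.29, Nbn to Rad50 at 0.60 ± 0.07, Palb2 to Brca2 at 0.67 ± 0.15 and Xrcc1 to Lig3 at -0.81 ± 0.05.

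**Figure D3:**
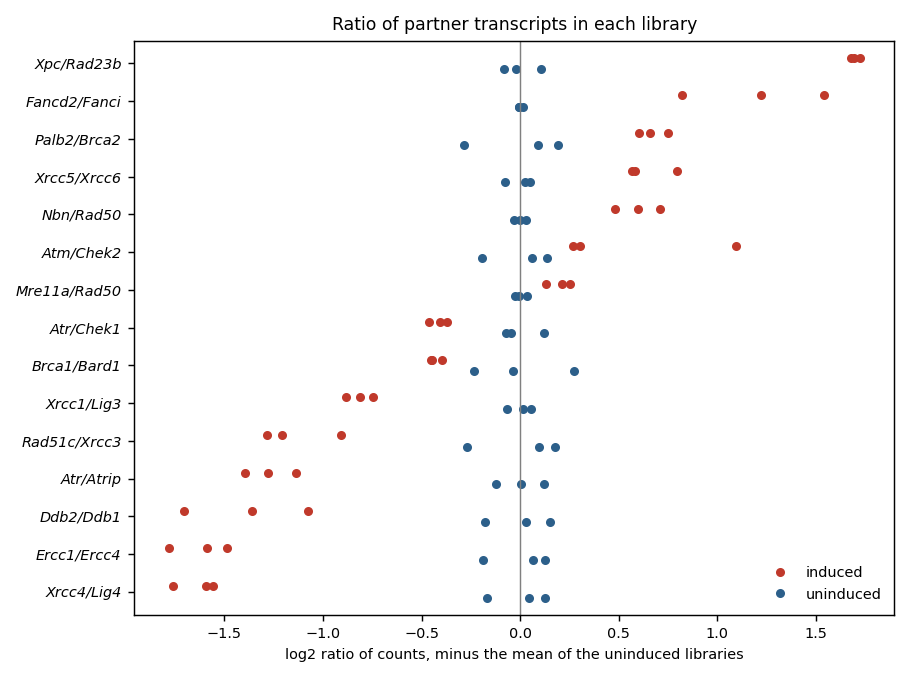
Log2 ratio of the counts of 15 of the 16 partner pairs in each library, minus the mean of the uninduced libraries (induced in red, above; uninduced in blue, below). None of the pairs drawn overlaps between the groups, and the shifts run from 1.70 for Xpc to Rad23b to -1.64 for Xrcc4 to Lig4.

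Levels per length of exon, as TPM (transcript shares scaled to a common total, on GENCODE M21 exon lengths), order the members within a group. All annotated exons of a gene were merged for its length, which can be longer than the transcript made, so the order depends on the annotation. In induced cells Lig1 was highest with 54.3 ± 3.17 TPM, followed by Parp1 with 32.0 ± 1.10, Xrcc5 with 25.1 ± 0.271, Nbn with 16.7 ± 0.855 and Msh6 with 16.5 ± 0.973, and the last pair did not differ beyond their SD (n = 3). The same 5 led in uninduced cells, where Lig1 had 91.0 ± 4.62 TPM, Parp1 79.9 ± 1.49, Xrcc5 75.1 ± 2.30, Nbn 66.9 ± 2.27 and Msh6 57.1 ± 2.27 (SD, n = 3). Ddb2 was lowest of the 37 in both groups, at 0.463 ± 0.111 TPM in induced and 2.84 ± 0.383 TPM in uninduced cells. Xpc ranked 6 of 37 in induced and 24 in uninduced cells, Rad52 ranked 19 and 33, and Atm 24 and 15. TPM carries no TMM factor, so it orders members within a group and was not used between groups.

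Several members share a promoter region with a gene read in the opposite direction. A tested partner with its start within 1000 bases, head to head, was found for 9 of the 30 members with a RefSeq window (30.0%), against 13.3% of tested genes with one. Atm fell by 1.27 on the log2 scale while Npat, a coactivator of histone genes that starts 376 bases away, rose by 0.84 ± 0.06. Brca1 was at -0.17 and Nbr1, an autophagy receptor gene 152 bases away, rose by 0.72 ± 0.05. Under size-only scaling Npat was at -0.12 and Nbr1 at -0.24, so these opposite directions were seen with TMM and not under size-only scaling. Palb2 rose by 0.83 and Dctn5, of the dynactin complex, fell by 0.44 ± 0.06. Mre11a fell by 0.91 while Ankrd49, 81 bases away, was not called (12.6 CPM in induced and 12.7 CPM in uninduced cells). Lig4 rose by 0.55 and Abhd13 fell by 0.14 ± 0.06. Palb2 and Lig4 were, like their neighbours, below 0 under size-only scaling. In the other 4 pairs both genes were called in one direction, lower for Xrcc3 with Zfyve21, Xrcc4 with Tmem167 and Xrcc6 with Desi1, and higher for Lig1 with 6330408A02Rik, of which Lig1 was lower and 6330408A02Rik higher under size-only scaling. Since the strand setting of the counting is not given in the sources used here, reads of genes that overlap on opposite strands cannot be separated. Of the 37 members, 18 share exon bases with another gene of the table, Parp1 only with Mir6904 on its own strand. Of the 18, 7 share 10% or more of their exon length. Beside Trp53bp1, Fanci, Ddb2 and Lig3, these were Rad54l with Lrrc41 (15.4%), Ogg1 with Camk1 (10.6%) and Fanca with Zfp276 (10.5%). A small share of length can still matter where the other gene is abundant. Xrcc4 shares 2.66% with Tmem167, which averaged 501 counts in induced and 2468 in uninduced libraries. Xpa shares 4.07% with Ncbp1, which averaged 4852 and 4061 counts and was at 1.17. The effect on the counts of Xrcc4 and Xpa was not tested.

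Beyond the 37, a list of 113 other repair genes had 111 with enough counts to be tested, of which 50 were lower (45.05%), 40 higher (36.0%) and 21 not called, with a median of -0.17. These shares lie near the 41.2% lower and 41.3% higher of all genes tested. The widest change was a rise: Dclre1c, which encodes Artemis, the nuclease that opens hairpin ends for joining, had 269, 233 and 277 CPM in induced libraries, against 14.4, 13.6 and 13.0 CPM in uninduced libraries. All induced libraries were more than 10 times above every uninduced one, or 4.25 ± 0.07 in log2 fold change (SE, edgeR adjusted p = 2.7e-22). Ube2t, the ubiquitin-conjugating enzyme that acts on FANCD2 and FANCI, rose by 2.54 ± 0.08 to 39.8 ± 1.35 CPM in induced cells, against 6.83 ± 0.915 CPM in uninduced cells (SD, n = 3). Mbd4, a glycosylase for mispaired thymine at CpG sites, rose by 2.06 ± 0.09, Slx1b, a structure-specific nuclease, by 1.60 ± 0.09, and Rev3l, the catalytic subunit of a translesion polymerase, by 1.24 ± 0.07. These 3 genes, Ube2t, Dclre1c and Ercc4 kept a positive log2 fold change under size-only scaling, while Rad1, Rnf8, Mus81, Top3a, Ercc6, Poll and Polk, called higher with TMM at 0.31 to 0.92, were between -0.66 and -0.044 there. In that setting 5 of the other repair genes were called higher. Ercc4 had the smallest rise of those that stayed positive, 1.03 with TMM, and the setting moved the median of all genes tested from -0.01 to -0.97.

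The falls outside the 37 included Rad54b, a RAD54 relative, at -1.69 ± 0.12, although 35.8% of its exon bases are shared with Fsbp on the same strand. In the mismatch repair list 4 of 6 genes were lower and 0 higher by edgeR, against 41.2% and 41.3% of all genes tested. Of that list Msh3 (12.6 CPM in both groups) and Mlh3 (log2 fold change 0.25), were not called. Uvssa, of transcription-coupled repair, fell by 1.19 ± 0.14, and Mutyh, Nhej1, Neil3, Fancc and Polq fell by 0.70 to 0.97. In the checkpoint list 8 of 16 were lower and 7 higher, such as Hus1 at -0.68 ± 0.07 and Rad1 at 0.89 ± 0.07, which encode subunits of the same sliding clamp. Timeless, Fancl, Polh and Mad2l2 were at -0.66, -0.47, -0.33 and -0.31. In the recombination list 13 of 26 were lower and 10 higher, in the end-joining list 3 of 6 lower and 2 higher, and in the Fanconi list 5 of 13 lower and 5 higher. Nucleotide excision genes were 6 of 16 lower and 7 higher, base excision genes 8 of 19 lower and 7 higher, and translesion and direct reversal genes 3 of 9 lower and 2 higher. Beside each of these counts stand the 41.2% lower and 41.3% higher of all genes tested.

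**Figure D4:**
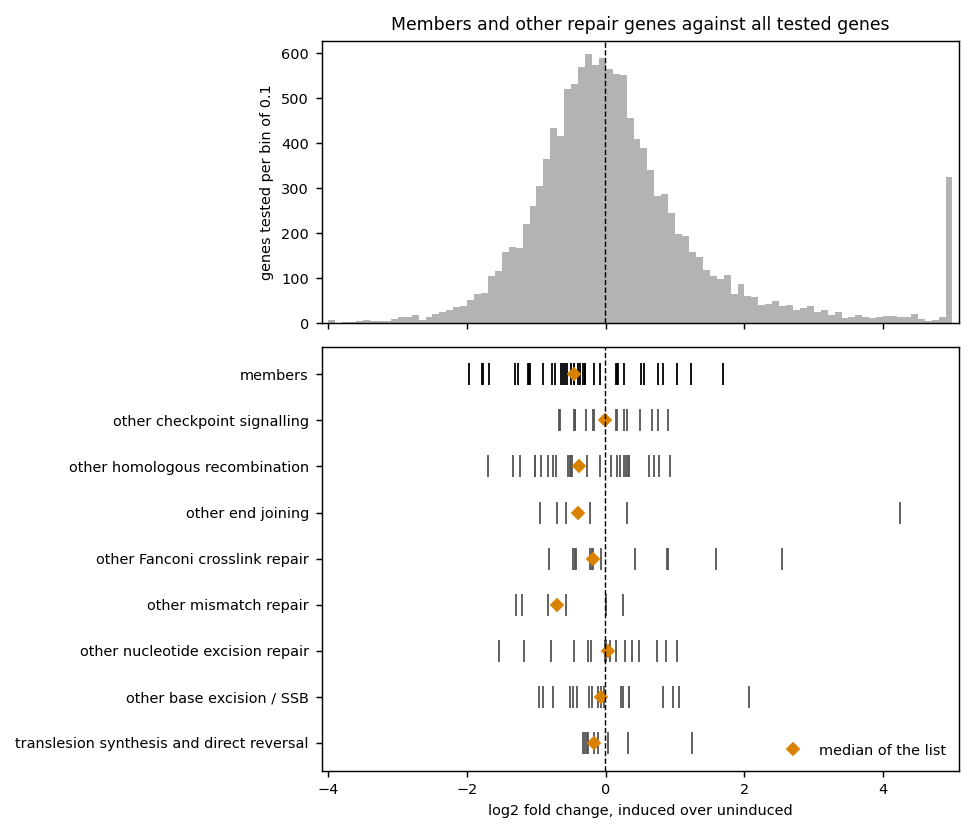
Top, log2 fold changes (induced over uninduced) of all 12969 tested genes in bins of 0.1, with values past the axis placed in the end bins; bottom, the 37 members and the 8 lists of other repair genes, 1 tick per gene, diamonds at the list medians. The dashed line is the median of all tested genes, the members' median is -0.46, and the isolated tick at 4.25 is Dclre1c.

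Cell cycle transcripts were measured beside these genes. Of 15 G1/S and replication markers 8 were lower (53.3%) and 4 higher (26.7%), against 41.2% and 41.3% of all genes tested, with a median of -0.21 and a sum of 1500.3 ± 16.1 CPM in induced and 1638 ± 20.3 CPM in uninduced cells (SD, n = 3). Mcm6, of the replicative helicase, fell by 1.64 ± 0.05 and Pcna, the sliding clamp, rose by 0.71 ± 0.04 with TMM but was at -0.25 under size-only scaling. Of 12 G2/M markers 8 were higher (66.7%) and 3 lower (25%), with a median of 0.21 that was -0.76 under size-only scaling. Under that scaling all 15 G1/S and all 12 G2/M markers were lower. The sum over the 37 members was 912 ± 7.61 CPM in induced and 924 ± 20.4 CPM in uninduced cells (SD, n = 3) and the abundant Lig1, Parp1 and Trp53bp1 were among the genes called higher with TMM. As a share of all counts the members took 0.0652% ± 0.000870 in induced and 0.129% ± 0.00265 in uninduced cells. The part of the cell cycle in the members' changes was not tested.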

How the data were processed

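Polyadenylated RNA of 6 cultures was sequenced, 3 induced and 3 uninduced, with groups taken from the sample titles. Per the submitters' processing notes, CASAVA, TopHat2 2.0.12 and Bowtie2 2.2.3 were used with the mm10 build. The authors deposited raw counts of reads per Entrez gene. Which program counted the reads, with what strand setting and gene models, is not given in the sources used here.

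Counts were tested as deposited in R 4.3.3 with edgeR 4.0.16 (TMM scaling, filterByExpr at its defaults, glmQLFit with robust=TRUE, glmQLFTest, two-sided, no term but group). P-values were Benjamini-Hochberg adjusted over all 12969 genes tested, at a threshold of 0.05. The SE of a log2 fold change was obtained as its size over the root of the F statistic. The biological coefficient of variation was 4.27%. Partner ratios used counts plus 0.5 and an exact permutation test. Coordinates came from RefSeq (GRCm38.p6, the assembly of mm10, 37 of 37 members matched) and exon lengths from GENCODE M21 (22984 rows matched).

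The members and gene lists were chosen with earlier results of these data known. Every member is reported. Of each other list, up to 2 rising and 2 falling genes are named, those with the largest log2 fold change among genes past the threshold, not overlapping and averaging 1 CPM or more; a few genes that the rule names, and 1 partner pair, are not reported here. Mcm6, Pcna, Msh3 and Mlh3, the promoter motifs and the head-to-head neighbours were chosen after values were seen. Alternatives were DESeq2 1.42.0, limma-voom (limma 3.58.1), other scalings, filters and thresholds, a replicate block and each library left out.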

Additional observations from a re-analysis of the deposited data

How the results depend on the processing

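The members' calls depended mainly on scaling and on the size of change asked for. Under scaling by library size alone, 1977 genes were higher and 9949 lower, 2 members were higher and 33 lower with a median of -1.42, and of other repair genes 5 were higher and 98 lower with a median of -1.13. The same setting put G1/S markers at 0 higher and 15 lower (median -1.17) and G2/M markers at 0 higher and 12 lower (median -0.76). It turned Bard1 to -0.70, Palb2 to -0.14, Brca2 to -0.81, Rad54l to -0.45, Lig4 to -0.41, Parp1 to -0.79, Lig1 to -0.21 and Lig3 to -0.80, and among other genes Rnf8 to -0.20, Rad1 to -0.072, Mus81 to -0.20, Top3a to -0.044, Poll to -0.66, Ercc6 to -0.091 and Polk to -0.64. Among head-to-head neighbours, an alternative added after seeing the data, it turned Npat to -0.12 and Nbr1 to -0.24. The median of all genes shifts by construction in that setting.

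A glmTreat test against a 1.5-fold change called 5549 genes, 3039 higher and 2510 lower, with 5 members higher and 12 lower, 17 other repair genes higher and 20 lower, 2 G1/S markers higher and 5 lower, and 0 G2/M markers higher and 0 lower. DESeq2 called 10266 genes. Upper-quartile scaling gave 4593 higher and 6191 lower genes, and medians of -0.60 for members, -0.31 for other repair genes, -0.36 for G1/S and 0.061 for G2/M markers, of which 5 were higher. Without the low-count filter 8 members were higher (Parp1 and Lig3 were lost) and 26 lower, and the medians were -0.53 for members, -0.28 for G1/S and 0.13 for G2/M markers. The cause of the filter's effect was not tested.

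Leaving out 1 library gave 10 to 11 members higher and 24 to 25 lower, a median of -0.47 to -0.39 for members, of -0.17 to -0.074 for other repair genes and of -0.23 to -0.18 for G1/S markers. The calls of Brca1, Brca2 and Xrcc5 changed, as given above. Pathways with a negative median numbered 8, or 7 with RLE scaling, DESeq2, the 1 CPM filter, and without uninduced replicate 1 or induced replicate 1. The median was -0.0094 for homologous recombination, beside -0.0106 over all genes tested, and -0.12 for base excision and single-strand break repair. Mismatch repair has 1 member. All 16 partner ratios stayed without overlap at a pseudocount of 1. Leaving out a library cannot make groups overlap that did not overlap before, so it was no check of the ratios.

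Replicate numbers are shared between the groups by label only. Same-numbered libraries deviated together at r = 0.0604, 0.0166 and 0.0335, under 0.1, and each library correlated best with its own number, a hint from the data and not from the design. A replicate block gave 10813 calls in all, with 10 members higher and 25 lower, and changed no call of a member. All 16 partner ratios shifted one way in every pair of like-numbered libraries. Groups without overlap must do so under any pairing, so this was no further check. For Ddb2, at 10 to 16 induced counts, depth limits the precision.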
